A study of Homo sapiens with 24 samples.

Results

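Cells carry stretches of mitochondrial DNA that were copied into the nuclear chromosomes over evolution, and some of those copies are annotated as genes. Of the 25341 gene symbols in the expression table, 7 of this kind are described here: the microRNA hairpin MIR6723 and 6 MTRNR2L genes, namely MTRNR2L1, MTRNR2L2, MTRNR2L6, MTRNR2L8, MTRNR2L9 and MTRNR2L10. They were taken by name and chosen by their TPM levels in these libraries, including the separate levels of the replicate numbers, so their levels, slopes and differences are described without a test; a count of members past the threshold set over all genes is given only beside the share of all genes past it, and nothing is read from it. All 7 passed the filter on low values, a mean over the 24 libraries that reached 1 TPM, as did 13416 genes in all. TPM is a share of the library scaled to a fixed total, after correction for transcript length.

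The cells were U2OS, a human osteosarcoma line, in a stably engineered Tet-off derivative in which withdrawal of doxycycline turns on the transgene. The induced arm expressed Tob2-S254D, a mutant form of TOB2, an antiproliferative protein known to bind the CCR4-NOT deadenylase, in medium without doxycycline; the uninduced arm was kept with doxycycline. The drug and the transgene therefore changed together, and their effects on these RNAs cannot be told apart; doxycycline is also known as an inhibitor of mitochondrial protein synthesis. RNA made in a pulse was labelled with bromouridine, and labelled RNA was recovered by immunoprecipitation from cytoplasmic RNA after 0, 0.5, 1, 2, 4 and 6 h of chase. Each of the 12 groups had 2 libraries, numbered replicate 1 and replicate 2, which makes 24 libraries. The labels do not state whether the engineered line was 1 clone, or whether the replicates were separate cultures, so p-values measure the spread between these libraries, which may be technical.

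Mitochondrial ribosomes contain a 12S and a 16S ribosomal RNA, both transcribed from mitochondrial DNA along with the messenger RNAs of the respiratory chain. The MTRNR2L genes are nuclear sequences that resemble the 16S gene, MT-RNR2, and are named for it; a short open reading frame within 16S is known for the peptide humanin, and the MTRNR2L genes carry humanin-like frames. Because the copies resemble each other and the mitochondrial original, short reads can match several of them. The table held 0 of 15 mitochondrially encoded genes looked for, so for all 7 members RNA of the nuclear copy and RNA of the mitochondrial genome cannot be told apart in these values. No sequence of a member was printed, since the sequence tables matched 0 of 7.

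One of the members overlaps an annotated microRNA whose sequence can be shown. In RefSeq genes of assembly GRCh38.p14, MTRNR2L8 overlaps MIR4485, on the minus strand of chromosome 11. The sequences below are the RefSeq hairpin of 57 bases, in which the capitals mark the mature microRNA at positions 31 to 50, and the mature strand of 20 bases, in which the capitals mark its seed, bases 2 to 8.
hairpin of MIR4485: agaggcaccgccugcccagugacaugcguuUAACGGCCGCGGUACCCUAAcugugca
hsa-miR-4485-3p: uAACGGCCgcgguacccuaa
MIR4485 was listed at 0 TPM in all 24 libraries, while MTRNR2L8, annotated over the same place, had 137 to 917 TPM. How reads lying over both annotations were assigned is not given, so the 0 does not show that the microRNA was absent.

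The other members lie in varied surroundings. RefSeq matched 6 of the 7 symbols, all 6 MTRNR2L genes, each typed as a pseudogene of 448 to 1290 bases. MTRNR2L1 has 11 further mitochondrial pseudogenes within 20 kb, among them copies of cytochrome oxidase and NADH dehydrogenase genes, and MTRNR2L10 has 4, whereas the other 4 MTRNR2L members have 0. MTRNR2L9 overlaps KHDRBS2, an RNA-binding protein gene listed at 0 TPM in 24 libraries. MTRNR2L6 lies within TRB, the T cell receptor beta locus. In the deposited table each member was a single transcript, and none shared its values with another gene.

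The induction was visible in TOB2, whose deposited values do not separate transgene from endogenous RNA. It had 499, 617 and 725 TPM in induced libraries (lowest, median, highest), against 92.3, 222 and 267 TPM in uninduced libraries, without overlap. U2OS identity could be checked only in part: VIM, a mesenchymal intermediate filament, had 346 to 968 TPM, the collagen gene COL1A1 had 5.56 to 22.9 TPM, the osteoblast transcription factor gene RUNX2 had 1.68 to 7.53 TPM, and the osteocalcin gene BGLAP had 0 to 6.46 TPM, while the bone genes SPARC, COL1A2, ALPL, SP7, IBSP and SPP1 and the epithelial and leukocyte markers EPCAM, CDH1, KRT19, PTPRC and CD3E were at or near 0. Library totals were 999998.67 to 1000000.97 TPM, and 12594 to 13757 genes reached 1 TPM per library. Read depth is unknown, so no counting interval could be given.

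MIR6723 was the most abundant RNA of the table, and in all 4 series it was lower at 4 and 6 h than at any earlier time. In induced cells, replicate 1 had 96394, 108927, 81244, 97171, 48205 and 31713 TPM at 0, 0.5, 1, 2, 4 and 6 h. Replicate 2 of the induced cells had 120027, 162878, 109215, 105374, 74409 and 34189 TPM at these times. Induced replicate 2 was above induced replicate 1 at every time, with the widest gap in TPM at 0.5 h.

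In uninduced cells, replicate 1 had 94679.8, 92189, 77146, 85057, 59673 and 30926 TPM from 0 to 6 h. Replicate 2 of the uninduced cells had 91143, 86279, 87647, 85436, 52147 and 30110.1 TPM. Both uninduced series lay close together, at 77146 to 94679.8 TPM up to 2 h and far lower at 6 h. The arms overlapped at 1 and 4 h, and at 6 h the lower induced value, 31713 TPM, lay next to the higher uninduced value, 30926 TPM.

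As a share of the library, MIR6723 took 3.17% to 16.3% in induced cells and 3.01% to 9.47% in uninduced cells. It ranked first of all genes in 19 of 24 libraries and second in the other 5, where RMRP, the RNA component of the mitochondrial RNA processing endoribonuclease, was first. Its TPM is scaled to a very short annotated transcript, so the level against other genes rests on the authors' length correction, whose part was not tested.

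**Figure D1:**
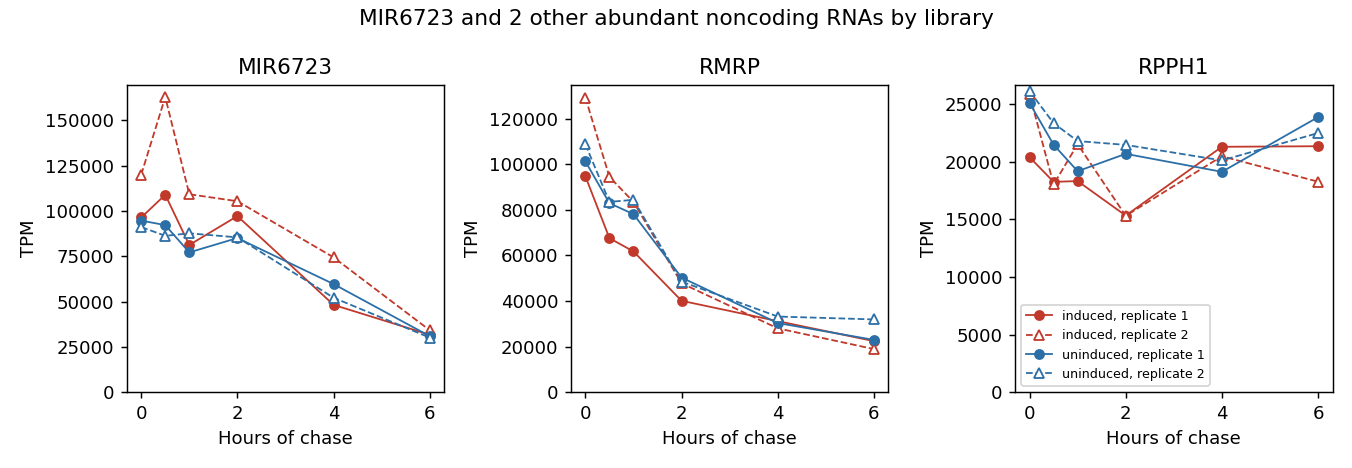
TPM (vertical axis, from 0) against hours of chase (horizontal axis) for MIR6723, RMRP and RPPH1; each line joins the 6 libraries of one arm and replicate number. MIR6723 stayed at 77146 to 162878 TPM up to 2 h and ended at 30110.1 to 34189 TPM, RMRP was below its 0 h level at every later time, and the group means of RPPH1 stayed between 15311 and 25598 TPM.

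The group means give the shape of the curve. In induced cells MIR6723 averaged 108211 ± 16711 TPM at 0 h, 101273 ± 5801 TPM at 2 h and 32951 ± 1751 TPM at 6 h (SD, n = 2). In uninduced cells it averaged 92911 ± 2501, 85246 ± 268 and 30518 ± 577 TPM at the same times (SD, n = 2). The level at 2 h was 0.936 of that at 0 h in induced and 0.918 in uninduced cells, and the level at 6 h was 0.325 of that at 2 h in induced and 0.358 in uninduced cells. At 6 h, 30.5% of the 0 h level was left in induced cells and 32.8% in uninduced cells.

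Other abundant noncoding RNAs had other courses. RMRP averaged 112037, 43966 and 20683 TPM at 0, 2 and 6 h in induced cells, against 105040, 49417 and 27462 TPM in uninduced cells, so that much of its loss came before 2 h. RPPH1, the RNA of ribonuclease P, was at 85.7% of its 0 h level at 6 h in induced cells and at 90.5% in uninduced cells. RN7SK, RN7SL1 and RN7SL2 were not analysed here.

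A line fitted to log2(TPM + 1) over the 6 times gave MIR6723 a slope of -0.30 per hour in induced cells (SE 0.032) and -0.26 per hour in uninduced cells (SE 0.032). The slopes of single series were -0.29 and -0.32 for induced replicates 1 and 2, and -0.25 and -0.27 for uninduced replicates 1 and 2. TPM are shares of the recovered RNA, so loss of one RNA and gain of others cannot be told apart, and the median slope of all genes was 0.028 per hour in induced and 0.039 in uninduced cells. The slopes of the arms differed by -0.045 (SE 0.046), about the size of its error, which does not show that they were alike.

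The slopes of the 6 MTRNR2L members lay closer to 0. Of all genes, 29.0% had a falling and 41.6% a rising slope past the threshold (limma adjusted p under 0.05) in induced cells. In uninduced cells 22.3% had a falling and 42.8% a rising one. With all 24 libraries in the fit, 1 of the 7 members was past the threshold in each arm, MIR6723, with a negative slope. In induced cells this count held in 25 of 26 fits with a library or replicate number left out, and rose in the other. MTRNR2L slopes ran from -0.07 to 0.06 per hour in induced cells and from -0.10 to 0.00078 in uninduced cells. Their SEs, 0.0835 to 0.12, were over 2 times that of MIR6723. In induced cells the series went apart: MTRNR2L2 had a slope of -0.17 in replicate 1 and 0.08 in replicate 2. With replicate 2 left out throughout, the induced slopes of the MTRNR2L members were all negative, from -0.238 for MTRNR2L1 to -0.114 for MTRNR2L9. Without replicate 1 they were all positive, from 0.038 for MTRNR2L6 to 0.229 for MTRNR2L10.

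MTRNR2L2 had the highest mean level of the 6. In induced cells, replicate 1 had 1298, 1851, 1073, 1536, 809 and 760.1 TPM at 0, 0.5, 1, 2, 4 and 6 h, and replicate 2 had 697, 1338, 671, 1163, 1608 and 958 TPM. In uninduced cells, replicate 1 had 986, 1082, 1426, 1084, 1087 and 697 TPM, and replicate 2 had 315, 315, 365, 563, 291 and 296 TPM. The 6 libraries of uninduced replicate 2 were the lowest of the 24, and the other 3 series overlapped.

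**Figure D2:**
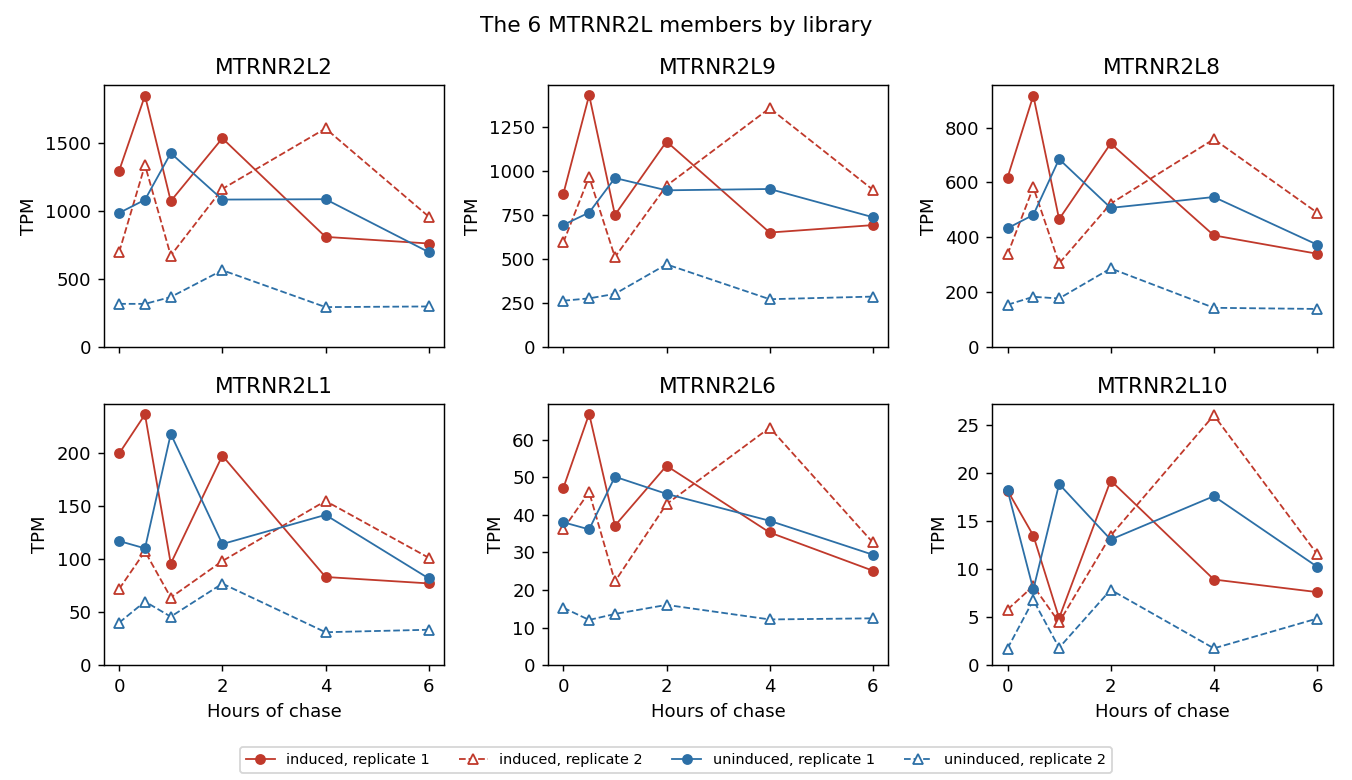
TPM (vertical axis, from 0) against hours of chase for the 6 MTRNR2L members, 1 panel a gene; each line joins the 6 libraries of one arm and replicate number. The uninduced replicate 2 series lies below uninduced replicate 1 in every panel, and the induced series of replicates 1 and 2 cross between 2 and 4 h.

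The mean level over the 24 libraries fell in steps from member to member. It was 928 TPM for MTRNR2L2, 732 TPM for MTRNR2L9, 441 TPM for MTRNR2L8, 107 TPM for MTRNR2L1, 34.5 TPM for MTRNR2L6 and 10.5 TPM for MTRNR2L10. The ranges of neighbours in this order overlapped at every step, while those of MTRNR2L8, 137 to 917 TPM, and MTRNR2L6, 12.1 to 66.9 TPM, did not. MTRNR2L10 was the member with the lowest mean, and MTRNR2L3, at 5.79 TPM, was the highest of the MTRNR2L genes not on the list. MTRNR2L5 averaged 2.80 TPM and MTRNR2L4 1.46 TPM, and MTRNR2L7 was at 0 in 22 libraries; other genes of the family were not analysed here.

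The 6 genes moved together from library to library. Over the 24 libraries the Pearson correlation of log2(TPM + 1) between MTRNR2L members was 0.798 to 0.993, highest for MTRNR2L2 with MTRNR2L8. MTRNR2L8 stood at 0.481 of the MTRNR2L2 level (median), with a range of 0.434 to 0.578 and a coefficient of variation of 7.02%, while MTRNR2L2 itself varied by 48.3%. MTRNR2L9 stood at 0.82 of MTRNR2L2 (0.67 to 1.06). The ratio was least steady for the lowest member, MTRNR2L10, with a coefficient of variation of 41.3%. MTRNR2L2 made up 36.2% to 44.2% of the sum of the 6, MTRNR2L9 28.5% to 38.2% and MTRNR2L8 17.9% to 21.4%. The points share arm, time and replicate number, and similar sequences can share reads; the part of read sharing in this was not tested.

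MIR6723 was weakly correlated with them. Its Pearson correlation with the MTRNR2L members was 0.0618 to 0.316 over the same 24 libraries. The ratio of MIR6723 to the MTRNR2L sum had a median of 25.2 in induced replicate 1, 45.9 in induced replicate 2, 27.6 in uninduced replicate 1 and 83.4 in uninduced replicate 2. At 6 h the sum kept 91.6% of its 0 h level in induced cells and 87.8% in uninduced cells, beside 30.5% and 32.8% for MIR6723 in these arms.

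**Figure D3:**
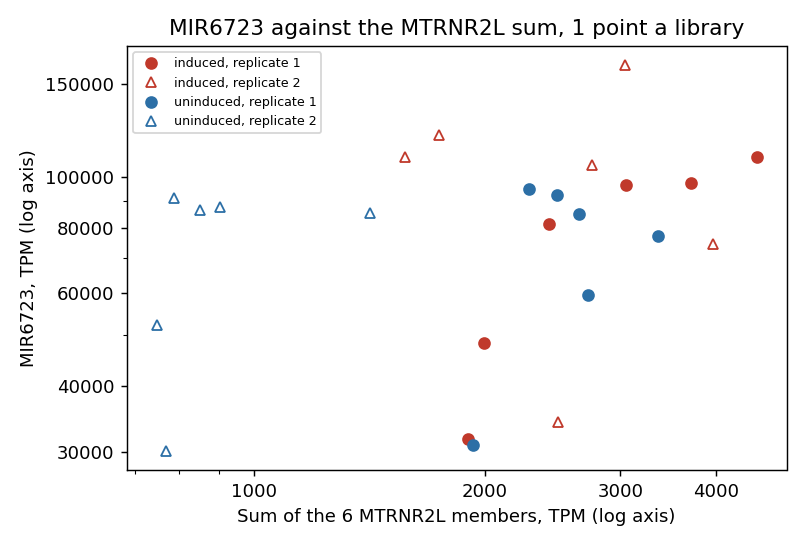
MIR6723 (vertical axis, TPM, log scale) against the sum of the 6 MTRNR2L members (horizontal axis, TPM, log scale), 1 point a library. The 6 uninduced replicate 2 libraries lie at the left, at 747 to 1417 TPM of the sum, while their MIR6723 values cover a similar span to those of uninduced replicate 1.

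The genes whose course was most like that of MIR6723 over the 24 libraries, among genes averaging 5 TPM or more, were SLC38A2, an amino acid transporter (Pearson r = 0.957), PNRC1 (0.953), the microRNA gene MIR4461 (0.951), the hyaluronan synthase HAS2 (0.95) and the transcription factor BHLHE40 (0.947). Chosen for that likeness, all 5 also had negative slopes, from -0.49 for BHLHE40 to -0.23 for PNRC1 in induced cells, and from -0.44 for BHLHE40 to -0.17 for PNRC1 in uninduced cells. MIR4461 averaged 3427, 3228 and 887 TPM at 0, 2 and 6 h in induced cells and 3559, 2776 and 672 TPM in uninduced cells. For MTRNR2L2 the nearest gene outside the list was MTRNR2L3 (r = 0.895), followed by KIAA1161 (0.834), NAV2 (0.81), CORO2A (0.791) and ZRANB2 (0.776), a zinc finger protein of splicing.

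The MTRNR2L values of the uninduced arm stood apart by replicate number. The sum of the 6 had 1927, 2566 and 3357 TPM (lowest, median, highest) in uninduced replicate 1, against 747, 818 and 1417 TPM in uninduced replicate 2. In induced cells it had 1899.99, 2737 and 4514 TPM in replicate 1 and 1575, 2620.0 and 3965 TPM in replicate 2. The highest library of uninduced replicate 2 was thus below the lowest library of each other series. For each of the 6 genes, every uninduced replicate 1 library lay above every uninduced replicate 2 library, as it did for 0.641% of all genes. The lowest replicate 1 and highest replicate 2 values nearly met for MTRNR2L10, at 7.89 and 7.86 TPM. For MTRNR2L1 they were 81.84 and 76.92 TPM. For MIR6723 the series overlapped.

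The mean difference over the 6 times, replicate 1 minus replicate 2 on the log2(TPM + 1) scale, was 1.43 to 1.70 for the 6 genes in uninduced cells. For MTRNR2L2 it was 1.58, a 2.98-fold difference, and the sign was the same at 6 of 6 times for all 6 genes; 12.0% of all genes had replicate 1 higher at all 6 times, and 0.0894% had it higher at all 6 times by a mean of at least 1. In induced cells the difference of the 6 genes was 0.10 to 0.48, with replicate 1 higher at 4 of 6 times. MIR6723 had a difference of -0.36 in induced cells, with replicate 2 higher at all 6 times, and 0.03 in uninduced cells. The members were listed with these values in view, so no test is given, and the labels give no batch, day or culture to set them beside.

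**Figure D4:**
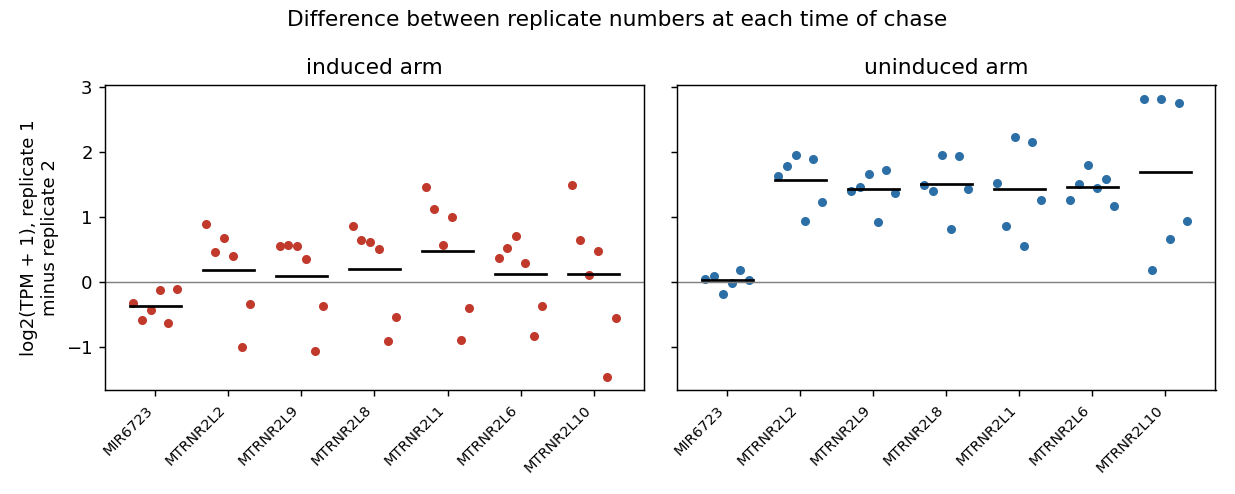
Difference of log2(TPM + 1), replicate 1 minus replicate 2 (vertical axis), for the 7 members in the induced arm (left) and the uninduced arm (right); each point is 1 time of chase, from 0 h at left to 6 h at right within a gene, and the bar is the mean of 6. The uninduced MTRNR2L points are all above 0, with means of 1.43 to 1.70. The induced MTRNR2L points lie on both sides of 0, and the induced MIR6723 points are all below 0.

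The comparison of the arms has to be read with that split. At 0 h the MTRNR2L members were higher in induced cells by 0.65 to 0.82 on the log2(TPM + 1) scale (SE 0.677 to 0.96), and MIR6723 by 0.21 (SE 0.193). These values rested on single libraries: with one of the 4 libraries of 0 h left out in turn, MIR6723 ran from 0.05 without induced replicate 2 to 0.37 without induced replicate 1, and MTRNR2L1 from 0.03 without uninduced replicate 2 to 1.56 without uninduced replicate 1. Of the MTRNR2L members, MTRNR2L10 moved most, from -0.75 without uninduced replicate 2 to 2.06 without uninduced replicate 1. At 0 h, 0 of 7 members were past the threshold, with 0 at an unadjusted p under 0.05 by limma, beside 0.0298% of all genes. MTRNR2L2 at 0 h averaged 998 ± 424 TPM in induced and 650.4 ± 474 TPM in uninduced cells (SD, n = 2), a difference smaller than the spread between replicates.

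Averaged over the 6 times, 4 of 7 members were higher in induced cells past the threshold, beside 14.3% of all genes higher and 11.4% lower. These were MIR6723, MTRNR2L2, MTRNR2L6 and MTRNR2L9. The members were chosen with their levels in these libraries in view, so nothing is read from this count. MIR6723 was higher by 0.24 (SE 0.079). MTRNR2L2 was higher by 0.86 (SE 0.306), MTRNR2L8 by 0.80 (SE 0.298), MTRNR2L9 and MTRNR2L6 each by 0.78 (SE 0.276), MTRNR2L1 by 0.58 (SE 0.321) and MTRNR2L10 by 0.48 (SE 0.392). The median difference of all genes was 0.05, so the larger part of all genes also lay above 0. The fit took the libraries as independent. In uninduced cells, though, replicate 1 was higher at 6 of 6 times for all 6 MTRNR2L members. In induced cells MIR6723 was higher in replicate 2 at all 6 times. Deviations were thus shared along a series, so these SEs and calls may overstate the precision. The 6 MTRNR2L members also moved together and are not separate observations.

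The arm difference of the MTRNR2L members was wider within replicate 2 than within replicate 1. Within replicate 1 it averaged 0.16 for MTRNR2L2, 0.12 for MTRNR2L9 and -0.30 for MTRNR2L10, with induced higher at 2 to 4 of 6 times. Within replicate 2 it averaged 1.55 for MTRNR2L2, 1.45 for MTRNR2L9 and 1.27 for MTRNR2L10, with induced higher at 6 of 6 times for all 6 genes. MIR6723 differed by 0.04 within replicate 1 (5 of 6 times higher) and by 0.44 within replicate 2 (6 of 6). Among all genes, 15.7% were higher in induced cells at all 6 times in replicate 1 and 13.6% in replicate 2. The replicate numbers were not treated as pairs in the fits, and the labels do not state whether they pair the arms. For the MTRNR2L members the wider gap goes with the low values of uninduced replicate 2, which were in view when the members were chosen. The difference between the replicate numbers was not tested.

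The count of 4 also rested on single libraries. It dropped to 0 or 1 without any one of 15 libraries: uninduced replicate 2 at any of the 6 times, induced replicate 1 at 0, 0.5, 1, 2 or 6 h, and induced replicate 2 at 0.5, 2, 4 or 6 h. MIR6723 was no longer among them without induced replicate 2 at any time, and also without uninduced replicate 1 at 1, 2 or 6 h or uninduced replicate 2 at 0, 0.5, 2, 4 or 6 h. Without the filter on low values the count was 0, beside 3057 of all genes.

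**Figure D5:**
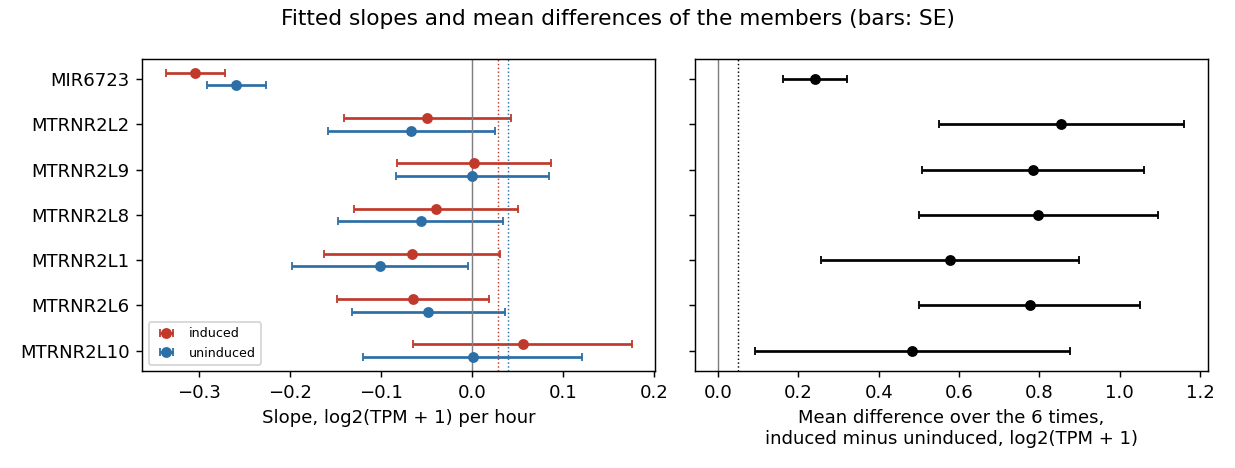
Left: slope of log2(TPM + 1) per hour (horizontal axis) for each member in induced (red) and uninduced (blue) cells. Right: induced minus uninduced cells, averaged over the 6 times (log2(TPM + 1)). Points are limma estimates, bars are 1 SE, and dotted lines are the medians of all genes. The MIR6723 slopes, at -0.30 in induced and -0.26 in uninduced cells, lie apart from those of the MTRNR2L members. The mean differences ran from 0.24 for MIR6723 to 0.86 for MTRNR2L2, beside a median of 0.05 for all genes.

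For the relative course along the chase, 0 of 7 members had a slope difference past the threshold by limma, with 0 at an unadjusted p under 0.05, beside 0.343% of all genes. The slope difference of the MTRNR2L members ran from -0.02 to 0.05 per hour (SE 0.118 to 0.17).

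MTRNR2L3, the nearest gene below the level of the members, followed them. It had 3.16, 6.69 and 17.4 TPM (lowest, median, highest) in induced libraries, against 1.00, 4.31 and 8.50 TPM in uninduced libraries. Its correlation with the 6 MTRNR2L members over 24 libraries was 0.62 to 0.907, and in uninduced cells replicate 1 was higher than replicate 2 by 1.13 on the log2(TPM + 1) scale, at 6 of 6 times. MTRNR2L4 and MTRNR2L5 had differences of 0.19 and 0.04 there, at levels of 1.46 and 2.80 TPM.

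Proteins encoded in the nucleus transcribe, process, modify and degrade mitochondrial RNA, and their messengers were measured in the same libraries. Of 48 symbols listed, 44 were in the table and tested. In induced cells 21 had a rising and 10 a falling slope past the threshold, 47.7% and 22.7% of the list, beside 41.6% and 29.0% of all genes. In uninduced cells 23 rose and 10 fell, 52.3% and 22.7% of the list, beside 42.8% and 22.3% of all genes. The median slope was 0.04 per hour in induced and 0.06 in uninduced cells, beside 0.03 and 0.04 for all genes in these arms. Those with the smallest p included C10orf2, the mitochondrial DNA helicase Twinkle, with slopes of -0.32 in induced and -0.23 in uninduced cells, DDX28, a helicase of the large mitochondrial ribosomal subunit, with -0.67 and -0.65 in these arms, MRM1, a methyltransferase of 16S RNA, with -0.39 in each, and FASTKD1, of a family of mitochondrial RNA-binding proteins, with 0.19 in induced and 0.18 in uninduced cells. The slope differed between the arms past the threshold for 0 of 44 genes by limma, with 3 at an unadjusted p under 0.05 (C10orf2 at -0.09, adjusted p = 0.1, FTSJ2 at -0.11, adjusted p = 0.185, and PDE12 at -0.08, adjusted p = 0.391).

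At 0 h, 0 of the 44 differed past the threshold, with 2 at an unadjusted p under 0.05, TFB1M and FASTKD1. Averaged over the chase, 5 were higher and 7 lower in induced cells past the threshold, 11.4% and 15.9% of the list, beside 14.3% and 11.4% of all genes. LRPPRC, which stabilises mitochondrial messengers, was higher by 0.23 (adjusted p = 0.00792). FTSJ2, a methyltransferase of 16S RNA, was lower at -0.25 (adjusted p = 0.00492). In size these were close to the mean difference of MIR6723, 0.24 (SE 0.079). They were below those of the MTRNR2L members, 0.48 to 0.86, whose SEs were wider (0.276 to 0.392, against 0.058 for LRPPRC).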

How the data were processed

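Bromouridine-labelled cytoplasmic RNA of U2OS Tet-off cells was sequenced in 24 libraries. The authors deposited TPM per transcript; Trim Galore, Bowtie2, RSEM 1.3.0 and hg19 are named in the submitters' processing notes. TPM of 48009 transcripts were summed per gene symbol. Tests used limma 3.58.1 (R 4.3.3, variance trend, two-sided) on log2(TPM + 1) of the 13416 genes whose mean reached 1 TPM: a line on hours per arm (20 residual degrees of freedom), or 12 group means (12 degrees), with Benjamini-Hochberg adjustment over all these genes and a threshold of 0.05. A fold on this scale understates changes of low genes. The members and lists were chosen with earlier results of these data known. Named genes are the 7 members, TOB2, the most abundant noncoding RNAs, the 5 genes most correlated with MIR6723 and with MTRNR2L2, and up to 4 listed mitochondrial RNA genes with the smallest p per comparison; MTRNR2L3 to MTRNR2L7 are accounted for. Replicate numbers were not treated as pairs. The libraries of a series were taken as independent in every fit, so SEs and p-values may be too small where a series deviates as a whole. Simulated data had 200 changed genes among 13416. On these the slope-difference test recovered 59% of changes of median size 0.195 (false calls 1.67%). The mean-difference test recovered 96.5% of changes of median size 0.985 (false calls 5.39%), a size larger than the mean difference of any member. The simulated libraries were drawn as independent, so these rates do not cover deviations shared along a series. Alternatives covered the pseudocount (0.1), the filter, 3 scalings, the variance trend, the replicate block, the chase span and each library left out. One neighbouring gene and one marker are not reported here.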

Additional observations from a re-analysis of the deposited data

Results flagged for a closer look

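The slopes of TOB2 differed between the arms: 0.02 per hour in induced cells (SE 0.0268) and -0.21 per hour in uninduced cells (SE 0.0268), a difference of 0.224 (SE 0.038, limma adjusted p = 0.00807) on the log2(TPM + 1) scale. Over 0 to 4 h it was 0.138 (adjusted p = 0.63), and with libraries left out it ran from 0.193 to 0.244, missing the threshold without induced replicate 1 at 6 h (adjusted p = 0.0677), without replicate 1 throughout (adjusted p = 0.993) and without replicate 2 throughout (adjusted p = 0.22). Its level at 6 h was 110% of that at 0 h in induced cells and 38.4% in uninduced cells. The deposited values do not separate transgene RNA from endogenous RNA. None of the 7 members met a criterion for a closer look.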

How the results depend on the processing

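The slope of MIR6723 stayed negative in both arms with each library or replicate number left out. It also did so under each other alternative except quantile normalization, which pins the top of every library to the same level. The slope was then 0.0191 in induced and 0.0170 in uninduced cells, with a slope difference of 0.00213. Under that setting 0 members were past the threshold in each arm. The MIR6723 difference between replicate numbers in induced cells was then 0.0762, an alternative chosen after the data were seen. The 4 members past the threshold in the mean difference stood beside 3454 of all genes. Without the filter on low values they became 0, beside 3057 of all genes, and without the variance trend 1, beside 3385. MIR6723 missed the threshold after median-of-ratios scaling, at 0.20, and quantile normalization, at 0.11. MTRNR2L8 passed it after rescaling without the members, RMRP and RPPH1, at 0.82. The replicate numbers were not taken as pairs, because not every pair of groups had deviations correlated over 0.1: they were -0.0364 to 0.253 over 66 pairs (median 0.0975), with 29 over 0.1, which does not show that the numbers share nothing. With a replicate block, 5 members passed in the mean difference, beside 4721 of 13416 genes. MTRNR2L8 was the added member, and no other member's call changed. Over all genes the block gave 99 slope differences and 11 differences at 0 h past the threshold, against 46 and 4; the slope differences were 328 after rescaling without the members, RMRP and RPPH1, 181 after quantile normalization, 88 with a pseudocount of 0.1, 30 without the filter and 0 over 0 to 4 h, and those at 0 h were 9 after that rescaling, 7 after quantile normalization and 2 without the variance trend. Median-of-ratios scaling moved the median slope of all genes by -0.0322 per hour in induced and -0.0441 in uninduced cells, and the share of rising calls became 49.1% in induced and 48.4% in uninduced cells, against 58.9% and 65.8% as deposited; after rescaling without the members, RMRP and RPPH1 it was 45.3% and 52.4%.

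Slopes near 0 changed sign with the setting, none of them past the threshold; the cause was not tested. After that rescaling MTRNR2L9 had -0.0471 in induced and -0.0388 in uninduced cells with a slope difference of -0.00824, MTRNR2L10 -0.0318 in uninduced cells and TOB2 -0.0326 in induced cells. After median-of-ratios scaling MTRNR2L9 had -0.0349 in induced and -0.0489 in uninduced cells, MTRNR2L10 -0.0390 in uninduced and TOB2 -0.0204 in induced cells. After quantile normalization MTRNR2L9 had -0.0290 in induced and -0.0375 in uninduced cells, and TOB2 -0.0248 in induced cells. Over 0 to 4 h the induced slopes of MTRNR2L2, MTRNR2L6 and MTRNR2L8 were 0.0255, 0.0410 and 0.0391, the uninduced slopes of MTRNR2L2 and MTRNR2L8 0.00231 and 0.0150, and the slope difference of MTRNR2L6 0.0556. Without the 0 h libraries MTRNR2L9 had -0.0305 in induced and -0.0287 in uninduced cells with a slope difference of -0.0017, and MTRNR2L10 -0.0207 in uninduced cells.

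With libraries or a replicate number left out, the induced slopes ran from -0.238 to 0.106 for MTRNR2L1, -0.175 to 0.0769 for MTRNR2L2, -0.168 to 0.0380 for MTRNR2L6, -0.180 to 0.101 for MTRNR2L8, -0.114 to 0.118 for MTRNR2L9, -0.118 to 0.229 for MTRNR2L10 and -0.00727 to 0.0402 for TOB2. The uninduced slopes ran from -0.121 to 0.0154 for MTRNR2L2, -0.102 to 0.0225 for MTRNR2L6, -0.116 to 0.0367 for MTRNR2L8, -0.0596 to 0.0862 for MTRNR2L9 and -0.0792 to 0.0639 for MTRNR2L10. The slope differences ran from -0.149 to 0.219 for MTRNR2L1, -0.0794 to 0.115 for MTRNR2L2, -0.102 to 0.0685 for MTRNR2L6, -0.129 to 0.163 for MTRNR2L8, -0.117 to 0.120 for MTRNR2L9 and -0.0822 to 0.192 for MTRNR2L10. Differences at 0 h ran from -0.0509 to 1.59 for MTRNR2L2 and from -0.753 to 2.06 for MTRNR2L10, the extremes being without one or the other uninduced 0 h library. The mean difference ran from 0.189 to 0.293 for MIR6723, from 0.692 to 1.02 for MTRNR2L2 and from 0.249 to 0.719 for MTRNR2L10. Depth is unknown, so its limit on the low members could not be given.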

Other observations

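In the uninduced arm, 12 of 13416 genes had a mean log2 difference of at least 1 between replicate 1 and replicate 2 with replicate 1 higher at all 6 times (0.0894%). The 6 MTRNR2L members and MTRNR2L3 were 7 of them. The other 5 were RPS16, a ribosomal protein gene, at 2.15, the small nucleolar RNAs SNORA28 at 1.95 and SNORA22 at 1.27, MIR614 at 1.63 and MIR497HG at 1.31. In the induced arm the difference was 1.52 for RPS16, 1.46 for SNORA28, 0.73 for MIR614, 0.49 for SNORA22 and 0.38 for MIR497HG, beside 0.10 to 0.48 for the 6 MTRNR2L members. These genes were chosen after their values were seen, and no test was made.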
